A study of Mus musculus with 12 samples.

Results

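The genes described here are 35 components of the lysosome, taken as a fixed list of symbols: 12 acid hydrolases, 3 soluble lumenal proteins that are not hydrolases, 7 membrane proteins and 13 subunits of the vacuolar proton pump (V-ATPase). Their probes were found by symbol in the platform annotation. Of the 35 genes, 33 matched probes on the array, and all 33 were measured, among 10143 named genes measured and 19057 genes with a symbol. The V-ATPase genes Atp6v0c and Atp6v1f matched no probe by symbol or gene ID and are not analysed here.

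RNA came from alveolar macrophages, the resident phagocytes of the airspaces, and was hybridised to Illumina Mouse WG-6 v2 BeadChips, with 1 array for each of 12 mice. The 6 MWCNT mice were C57Bl/6 animals that received 100 µg of multiwalled carbon nanotubes, stiff fibres that macrophages engulf and degrade poorly, in a 35% mixture of surfactant and saline delivered to the oropharynx. The 6 control mice, also C57Bl/6, received the 35% surfactant mixture alone, so that the vehicle was shared by both groups. The comparison asks how transcripts differed long after a single dose. Cells were lavaged at day 60, with a purity over 90% per the labels, which give no age or sex.

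Lysosomes break down what a phagocyte takes in. Acid hydrolases digest proteins, lipids and glycans in the lumen, heavily glycosylated membrane proteins line and protect the limiting membrane, and the V-ATPase acidifies the compartment. The pump has a cytosolic V1 sector, which hydrolyses ATP, and a membrane V0 sector, through which protons pass. Many lysosomal genes carry E-box-like elements near the start of transcription that are bound by TFEB and its relatives, which enter the nucleus when lysosomes are stressed or mTORC1 activity is low. In alveolar macrophages the compartment handles surfactant lipid as well as inhaled particles.

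The promoter windows below show where the E-box TCACGTG, searched on both strands, lay in members of the list. RefSeq windows on GRCm38.p6, from 250 bases before to 50 bases after the start of transcription, were matched for 30 of the 35 genes. The motif was present in 8 of these 30 windows (26.7%), against 4.29% of the windows of 27025 genes and 5.00% of those of 17492 protein-coding genes. The longer form TCACGTGA reads as the 7-letter motif on both strands over the same letters. It was present in 4 members, against 1.12% of all genes. Each stretch is printed on the strand of its gene, 5′ to 3′, with capitals marking TCACGTG or its reverse complement.
Atp6v1a, chr16:44139357-44139418, minus strand: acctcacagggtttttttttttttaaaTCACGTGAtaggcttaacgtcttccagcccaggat
Atp6v0d1, chr8:105566061-105566095, minus strand: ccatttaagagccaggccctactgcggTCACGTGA
Atp6v0b, chr4:117887330-117887393, minus strand: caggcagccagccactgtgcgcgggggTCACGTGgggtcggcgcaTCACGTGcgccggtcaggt
Lamp1, chr8:13159072-13159160, plus strand: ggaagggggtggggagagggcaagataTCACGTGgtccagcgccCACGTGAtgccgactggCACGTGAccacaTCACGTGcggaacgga
Mcoln1, chr8:3500420-3500507, plus strand: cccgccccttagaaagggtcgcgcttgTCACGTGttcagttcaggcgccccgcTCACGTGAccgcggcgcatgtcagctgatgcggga
Cd164, chr10:41519385-41519446, plus strand: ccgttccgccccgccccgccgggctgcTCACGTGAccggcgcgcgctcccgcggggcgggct
Gaa, chr11:119267795-119267855, plus strand: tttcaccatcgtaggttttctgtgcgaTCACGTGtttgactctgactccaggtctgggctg
Glb1, chr9:114401002-114401062, plus strand: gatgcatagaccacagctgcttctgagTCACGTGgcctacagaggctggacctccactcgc
Lamp1 held 4 copies of the motif in its window, and Mcoln1 and Atp6v0b held 2 each. A match is a description of the letters and not evidence of binding.

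Transcripts of 4 lysosomal genes were higher in MWCNT macrophages: the V1 subunits Atp6v1c1 and Atp6v1a, the cholesterol-binding protein Npc2 and the acid phosphatase Acp2. Their increases ran from 1.27-fold to 1.42-fold. None of the 33 measured genes was called lower, and 29 passed the test in neither direction. Over all 10143 named genes 7.48% were raised and 5.3% were lowered by the same test. Most differences were small, with a median of 0.05 on the log2 scale over the 33 genes, against -0.02 over all named genes. The calls rest on limma's moderated test with Benjamini-Hochberg adjustment over 13210 features, at an adjusted p under 0.05. In bulk RNA of this kind, fewer cells of a type and less RNA per cell cannot be told apart. Every one of the 33 probes was detected on all 12 arrays, and among the 8383 named genes with that property 5.45% were raised and 5.25% lowered.

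**Figure D1:**
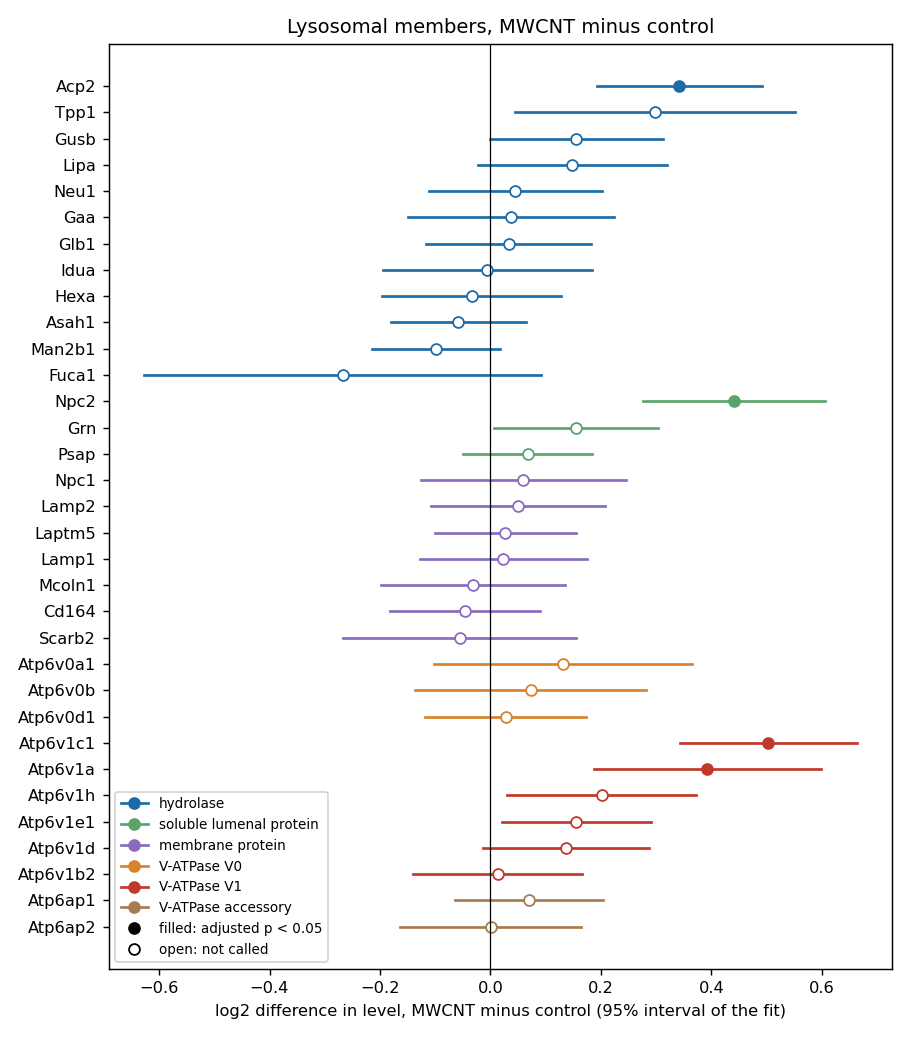
Log2 difference in level (x axis, MWCNT minus control) of the 33 measured genes, grouped and coloured by class, with the 95% interval of the fit as a line and 6 mice per group; filled points passed the test and open points did not. The 4 filled points, Acp2, Npc2, Atp6v1c1 and Atp6v1a, lie between 0.34 and 0.50, and the membrane proteins lie between -0.06 and 0.06.

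The V1 sector of the proton pump held the largest difference of the list. Atp6v1c1 encodes the C1 subunit, which in yeast regulates the joining of the V1 and V0 sectors. Its lowest, median and highest normalised log2 levels were 12.21, 12.31 and 12.45 in MWCNT macrophages, against 11.55, 11.87 and 11.90 in control macrophages. The groups did not overlap, and 1 control array, the lowest, stood apart from the other 5, which lay between 11.86 and 11.90. Atp6v1c1 rose by 0.50 ± 0.07 (SE, n = 6 per group) on the log2 scale, or 1.42-fold (adjusted p = 0.000679). Without that control array the difference was 0.45.

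Atp6v1a encodes the catalytic A subunit, which binds and hydrolyses ATP, and its window is one of the 4 with TCACGTGA. Its lowest, median and highest levels were 11.03, 11.41 and 11.60 in MWCNT macrophages, against 10.87, 10.92 and 11.04 in control macrophages. Here 5 of 6 MWCNT arrays lay above all controls, and the MWCNT arrays split into 4 at 11.37 or higher and 2, of replicates 4 and 5, at 11.03 and 11.11. Atp6v1a rose by 0.39 ± 0.10 (SE), or 1.31-fold (adjusted p = 0.0156).

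The other V1 subunits did not pass the test. Atp6v1b2, the B subunit that alternates with A in the catalytic ring and is the isoform of most tissues, had 13.64, 13.77 and 13.87 in MWCNT macrophages, against 13.64, 13.75 and 13.95 in control macrophages. The groups overlapped throughout, and the difference was 0.01 ± 0.07 (adjusted p = 0.934), with a 95% interval from 0.907-fold to 1.12-fold. Atp6v1h, a regulatory subunit, differed by 0.20 ± 0.08 (adjusted p = 0.115). Its levels were 12.44, 12.56 and 12.63 in MWCNT macrophages, against 12.20, 12.29 and 12.63 in control macrophages. A single control array reached the MWCNT range there, and without that array, control replicate 1, the difference was 0.26 and passed (adjusted p = 0.0212). When every probe was fitted on its own, a second, much dimmer Atp6v1h probe differed by -0.35 ± 0.11 (adjusted p = 0.0659). Atp6v1e1, a subunit of the peripheral stalks, differed by 0.16 ± 0.06 (adjusted p = 0.124), and Atp6v1d, part of the central rotor, by 0.14 ± 0.07 (adjusted p = 0.224).

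No subunit of the V0 sector was called. Atp6v0a1, an isoform of the large subunit that forms the proton half-channels, had 12.23, 12.37 and 12.51 in MWCNT macrophages, against 11.95, 12.22 and 12.53 in control macrophages. The control arrays covered the whole MWCNT range, and the difference was 0.13 ± 0.11 (adjusted p = 0.474). Atp6v0d1, which couples the rotor to the proteolipid ring, had 13.20, 13.25 and 13.35 in MWCNT macrophages, against 13.01, 13.25 and 13.34 in control macrophages. The medians of the groups were the same to 2 decimals, and the difference was 0.03 ± 0.07 (adjusted p = 0.842). Atp6v0b, a proteolipid of the rotor ring, differed by 0.07 ± 0.10 (adjusted p = 0.679).

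Among the accessory proteins, Atp6ap1 takes part in assembly of the pump. Its levels were 13.79, 13.89 and 14.02 in MWCNT macrophages, against 13.77, 13.81 and 13.92 in control macrophages, a difference of 0.07 ± 0.06 (adjusted p = 0.512). Atp6ap2, the (pro)renin receptor, had 13.52, 13.67 and 13.89 in MWCNT macrophages, against 13.56, 13.67 and 13.87 in control macrophages. Both accessory genes overlapped between groups, and Atp6ap2 differed by 0.00 ± 0.08 (adjusted p = 0.998). Over the whole pump, 2 of 11 measured subunits were raised, and the median difference was 0.13. It was 0.18 over the 6 V1 subunits, 0.07 over the 3 V0 subunits and 0.04 over the 2 accessory proteins. All 11 differences were above 0, but this direction depended on the scaling: 3 of 11 were above 0 when each array was instead scaled to its median over the probes that passed the detection filter, with no quantile step.

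**Figure D2:**
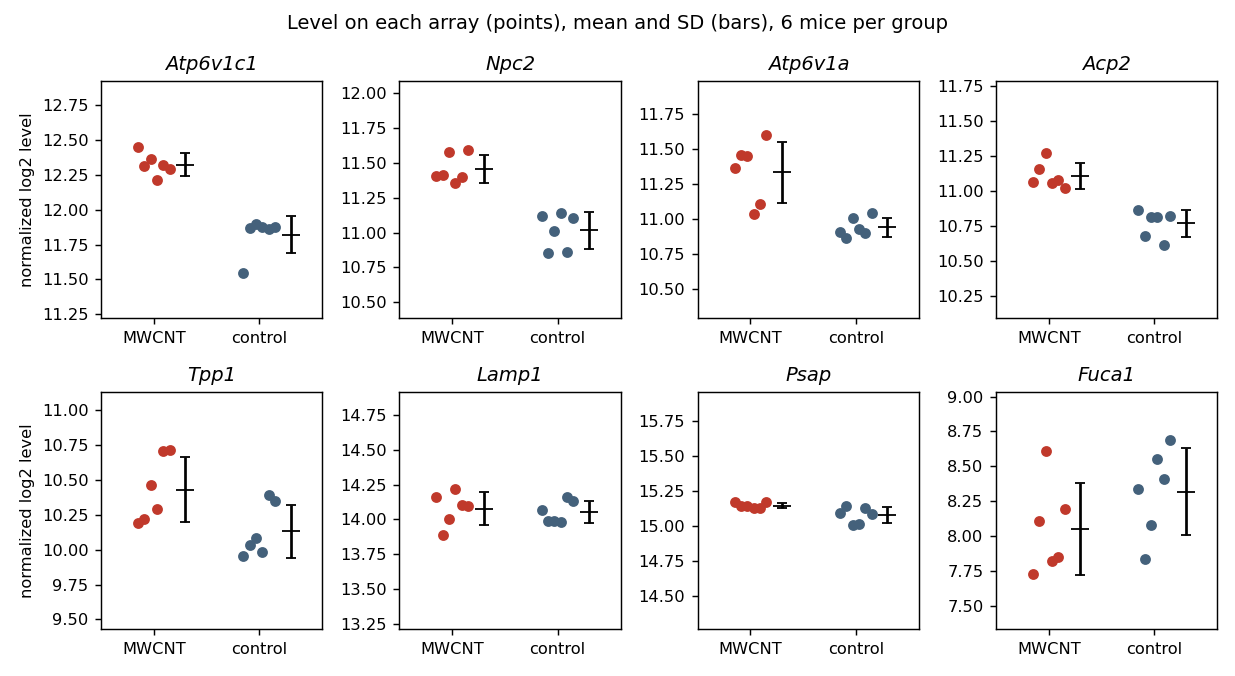
Normalised log2 level (y axis) of 8 genes on each array, with MWCNT mice to the left of control mice; points are arrays and bars give the mean and SD of 6 mice. The MWCNT points lie wholly above the control points for Atp6v1c1, Npc2 and Acp2, and 5 of 6 do for Atp6v1a, while the groups overlap for Tpp1, Lamp1, Psap and Fuca1.

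Among soluble lumenal proteins, Npc2 was raised. Npc2 binds cholesterol in the lumen and hands it to the membrane protein Npc1 for export. Its lowest, median and highest levels were 11.36, 11.41 and 11.59 in MWCNT macrophages, against 10.85, 11.06 and 11.14 in control macrophages. The groups did not overlap. Npc2 rose by 0.44 ± 0.08 (SE), or 1.36-fold (adjusted p = 0.00205). Grn, which encodes progranulin, differed by 0.16 ± 0.07 (adjusted p = 0.160), with 4 of 6 MWCNT arrays above all controls. Psap, the precursor of the saposins that present sphingolipids to hydrolases, had 15.13, 15.14 and 15.17 in MWCNT macrophages, against 15.005, 15.09 and 15.14 in control macrophages. Both groups spanned a narrow range, and the difference was 0.07 ± 0.05 (adjusted p = 0.465). With arrays scaled to the median of the detected probes, Psap turned to -0.23 and was called lowered (adjusted p = 0.0303). That scaling lowered 13.7% of all named genes and gave them a median of -0.10.

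Of the 12 hydrolases 1 was raised, 7 differences were above 0 and 5 were below, with a median of 0.04. Acp2, the lysosomal acid phosphatase, had a lowest, median and highest level of 11.02, 11.07 and 11.27 in MWCNT macrophages, against 10.61, 10.81 and 10.87 in control macrophages. All 6 MWCNT arrays lay above all controls. Acp2 rose by 0.34 ± 0.07 (SE), or 1.27-fold (adjusted p = 0.00549).

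Fuca1, the fucosidase that trims glycans, marked the other end of the class. It had 7.73, 7.98 and 8.61 in MWCNT macrophages, against 7.84, 8.38 and 8.69 in control macrophages. The spread within each group, 0.33 with MWCNT and 0.31 in controls (SD, n = 6), exceeded the difference of -0.27 ± 0.17 (adjusted p = 0.327). It was the least precise value of the list, with a 95% interval from 0.648-fold to 1.07-fold. This probe was designed on a cDNA clone. A dimmer Fuca1 probe on a RefSeq transcript, at 5.69 in MWCNT and 5.78 in control macrophages, differed by -0.09 ± 0.13 (adjusted p = 0.728).

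Tpp1, the tripeptidyl peptidase deficient in a childhood form of neuronal ceroid lipofuscinosis, differed by 0.30 ± 0.12 and did not pass (adjusted p = 0.117). With all-probe median scaling it differed by 0.40 and passed (adjusted p = 0.0105). It also passed with the replicate number added to the fit as a block (adjusted p = 0.0231). Its 6 MWCNT arrays, from replicate 1 to replicate 6, had 10.19, 10.22, 10.46, 10.29, 10.70 and 10.71, against 9.96, 10.04, 10.08, 9.98, 10.39 and 10.35 in the control arrays. The arrays numbered 5 and 6 were the highest in both groups. Gaa, the acid glucosidase that degrades glycogen, showed the opposite order in the MWCNT group, where replicates 5 and 6 had 10.73 and 10.74 and the other 4 had 11.07 to 11.13. Control Gaa levels lay from 10.86 to 11.05, between these sets, and Gaa differed by 0.04 ± 0.09 (adjusted p = 0.825). MWCNT replicates 5 and 6 were also the only arrays on which all 3 Y-linked probes were detected. Their part in these values was not tested beyond leaving both arrays out, after which the same number of genes, 4 raised and 0 lowered, was called.

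The remaining hydrolases did not pass the test either. Man2b1, a mannosidase, had 5 of 6 MWCNT arrays below all controls, with a difference of -0.10 ± 0.05 (adjusted p = 0.256). It was called lowered in the authors' processed values (-0.11, adjusted p = 0.0298) and with scaling to the detected probes (-0.32, adjusted p = 0.00218), as was Asah1 with that scaling (-0.26, adjusted p = 0.0154). That scaling lowered 13.7% of all named genes. The glucuronidase Gusb differed by 0.16 ± 0.07 (adjusted p = 0.182), and the acid lipase Lipa, which frees cholesterol from its esters, by 0.15 ± 0.08 (adjusted p = 0.2503). The sialidase Neu1, the galactosidase Glb1, the iduronidase Idua, the hexosaminidase subunit Hexa and the acid ceramidase Asah1 differed by -0.06 to 0.05. Glb1 stood out by its spread: its 6 MWCNT arrays lay within 10.69 to 10.73, against 10.57 to 10.92 in the control arrays.

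None of the 7 membrane proteins was called. Npc1, the cholesterol exporter that receives its cargo from Npc2, had 13.17, 13.44 and 13.47 in MWCNT macrophages, against 13.10, 13.31 and 13.54 in control macrophages. The MWCNT values lay inside the control range, and the difference was 0.06 ± 0.09 (adjusted p = 0.709). Scarb2, the receptor that delivers glucocerebrosidase to lysosomes, had 11.14, 11.17 and 11.48 in MWCNT macrophages, against 11.03, 11.25 and 11.49 in control macrophages. Its MWCNT values also lay inside the control range, and the difference was -0.06 ± 0.10 (adjusted p = 0.767). The structural glycoproteins Lamp1 and Lamp2 differed by 0.02 ± 0.07 and 0.05 ± 0.07. Laptm5, a transporter-like protein of blood cells, the cation channel Mcoln1 and the sialomucin Cd164 differed by 0.03 ± 0.06, -0.03 ± 0.08 and -0.05 ± 0.06. With scaling to the detected probes all 7 differences were below 0 (0 of 7 above), and Laptm5 and Cd164 were called lowered (-0.26, adjusted p = 0.0324, and -0.28, adjusted p = 0.0109). Of all named genes 13.7% were lowered under that scaling, and their median was -0.10. Lamp1, Mcoln1 and Cd164 are also among the promoters printed above.

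The differences can be set beside the promoter windows. Of the 8 measured genes with TCACGTG in the window 1 was raised (Atp6v1a), with a median difference of 0.03 and a range from -0.05 to 0.39. Of the 20 measured genes with a window and no such motif, 2 were raised, with a median of 0.07. Atp6v1c1, which had the largest difference of the list, had no window and is in neither group. The difference between these groups was not tested.

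**Figure D3:**
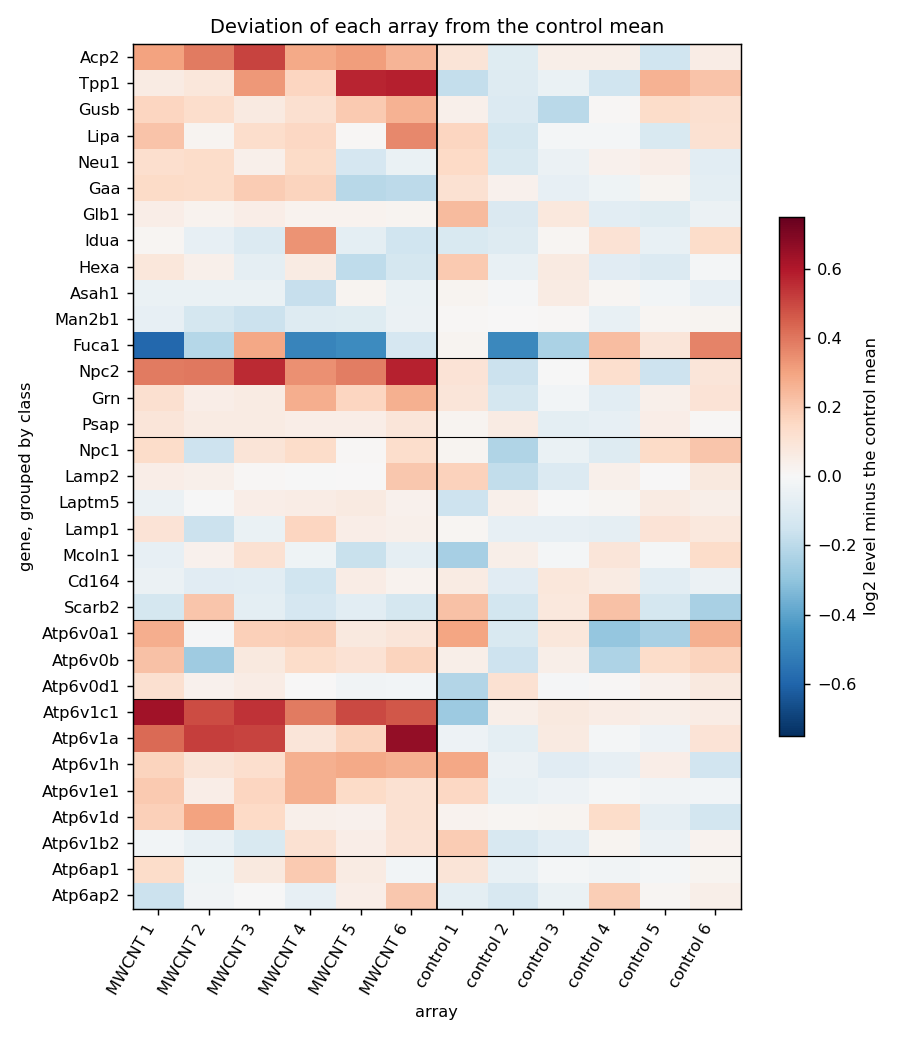
Deviation of each array from the control mean (colour, log2) for the 33 measured genes in rows, grouped by class, and the 12 arrays in columns, with the MWCNT arrays left of the control arrays. The rows of Acp2, Npc2, Atp6v1c1 and Atp6v1a are above the control mean on all 6 MWCNT arrays, and Tpp1 is highest on MWCNT arrays 5 and 6. Rows of some genes that were not called, such as Atp6v1e1, Gusb and Psap, are also above it on all 6.

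Array by array, the median deviation of the 11 pump subunits from the control mean ran from 0.03 to 0.18 with MWCNT, against -0.06 to 0.04 in controls. For the 3 soluble lumenal proteins it was 0.06 to 0.27 with MWCNT and -0.13 to 0.09 in controls. For the hydrolases it was -0.05 to 0.13 with MWCNT and -0.10 to 0.07 in controls, and for the membrane proteins -0.04 to 0.03 with MWCNT and -0.08 to 0.07 in controls. The ranges of the 2 groups overlapped in all 4 classes. The raised counts by class were 2 of 11, 1 of 3, 1 of 12 and 0 of 7 in that order, and differences between classes were not tested. In 3 genes the lowest MWCNT array exceeded the highest control array, against 4.41% of all named genes. In 0 genes the whole MWCNT group lay below the controls, against 2.59% of all named genes.

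For 28 of the 29 genes that did not pass, the 95% interval excluded a change beyond 1.5-fold in either direction, the exception being Fuca1. This holds for the brightest probe of each gene under quantile normalisation. Intervals of some other probes, such as those of Scarb2, Atp6ap2 and Glb1, reached beyond 1.5-fold. The SE ran from 0.05 to 0.17, and the smallest adjusted p among the uncalled genes was 0.115.

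The direction of the small differences depended on the scaling between arrays. With each array scaled to its median over all probes, 5 of the 33 genes were raised and 0 lowered, and over all named genes 1357 were raised and 126 lowered. With arrays scaled to the median of the detected probes, 4 were raised and 5 lowered, and over all named genes 679 were raised (6.69%) and 1391 lowered (13.7%). With quantile normalisation the named genes split into 759 raised and 538 lowered. The median over all named genes was -0.02, 0.11 and -0.10 under quantile, all-probe and detected-probe scaling. Relative to it, the median of the 33 genes was 0.07 higher under quantile normalisation and 0.00 away under both median scalings. The median scalings differ from each other only by a constant on each array, so this relative value had to be the same under both. Atp6v1c1, Npc2, Atp6v1a and Acp2 passed the test under each of these scalings. Under the scaling that moved them least, to the detected probes, they rose by 0.35, 0.31, 0.27 and 0.23, with adjusted p of 0.0051, 0.0136, 0.0443 and 0.0440.

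**Figure D4:**
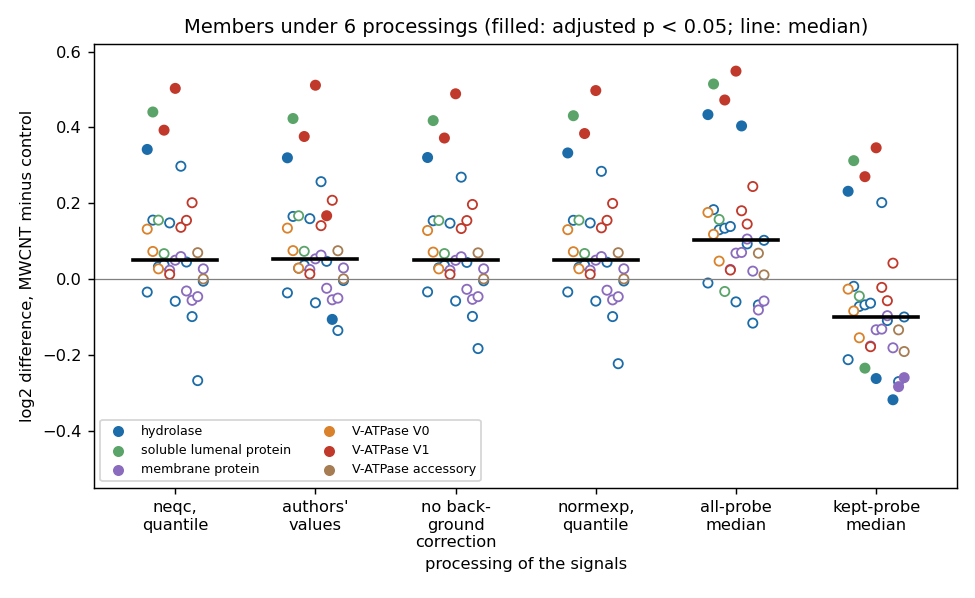
Log2 difference (y axis, MWCNT minus control) of the 33 genes under 6 ways of processing the signals (x axis), coloured by class, with filled points for an adjusted p under 0.05 and a line at the median. The same 4 genes stay filled and above 0 throughout, while the median line moves to 0.10 with all-probe scaling and -0.10 with scaling to the detected probes.

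Further probes of the same genes gave a check on the probe chosen, which was the brightest one per gene. Beside the 33 chosen probes, 30 others of 16 genes passed the detection filter, and 22 of these had the sign of the chosen probe. When all 19291 such probes were fitted on their own, 3 of the 30 passed the test, all raised, against 6.04% raised over all probes. A second Atp6v1c1 probe differed by 0.55 ± 0.09 (adjusted p = 0.00133). Of 3 other Acp2 probes, 1 was raised by 0.28 ± 0.06 (adjusted p = 0.0109), and the others differed by 0.12 ± 0.10 and -0.04 ± 0.09. The Acp2 probe at 0.12 (adjusted p = 0.495) was only 0.02 log2 units dimmer than the chosen one. Npc2 and Atp6v1a had a single probe. The 8 probes of opposite sign did not pass. Apart from those of Acp2 and Lamp2, they belonged to Atp6v1h (-0.35 ± 0.11, adjusted p = 0.0659), Scarb2 (0.45 ± 0.16, adjusted p = 0.0781), Glb1 (-0.37 ± 0.15, adjusted p = 0.133), Asah1 (0.12), Psap (-0.06) and Atp6v0a1 (-0.01). The Psap probe was only 0.02 log2 units dimmer than the chosen one.

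Lamp2 was measured by 7 probes, of which 2 were designed on one RefSeq transcript, 3 on another and 2 on cDNA clones. The chosen probe, on the first transcript, differed by 0.05, and the second probe of that transcript by 0.26 ± 0.08 (adjusted p = 0.0521). The 3 probes of the other transcript differed by 0.15, 0.20 and 0.33, and the last of these passed (0.33 ± 0.09, adjusted p = 0.0396). The clone probes differed by -0.48 and 0.08, so the direction for Lamp2 was not the same on all probes. The probe at -0.48, the only one below 0, was dim, with mean log2 levels of 5.84 in MWCNT and 6.32 in control macrophages. The chosen probe had 13.67 and 13.62. All 3 remaining Atp6ap2 probes differed by more than the chosen one, by 0.27 to 0.35, without passing.

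**Figure D5:**
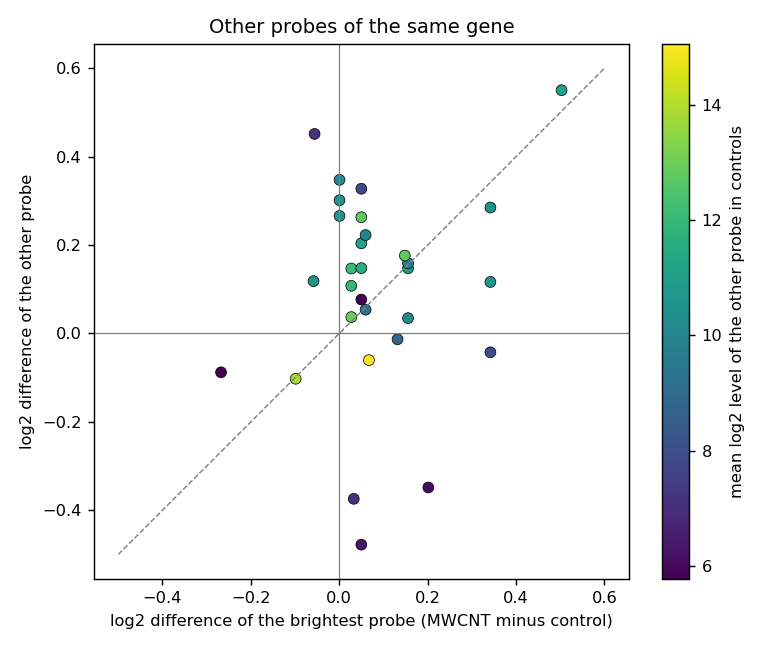
Log2 difference of each of 30 further probes (y axis, MWCNT minus control) against that of the brightest probe of the same gene (x axis), coloured by mean log2 level in controls, with the line of equality dashed. The Atp6v1c1 point lies near the line at 0.50 and 0.55, and 8 probes lie on the opposite side of 0 from the brightest probe.

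Other genes of the compartment were taken from 5 further lists. Their counts are given over genes detected on all 12 arrays, since a gene that passed the detection filter through the group where it was brighter had to differ. Over the 8383 named genes with that property, 5.45% were raised and 5.25% lowered by the same test. Of 19 other hydrolases 2 were raised and 0 lowered, with a median of -0.02. When arrays were scaled to the detected probes, 2 of these were raised and 5 lowered. Of all named genes, including those not detected on every array, 6.69% were raised and 13.7% lowered under that scaling, and their median was -0.10. Naglu, which degrades heparan sulfate, rose by 0.46 ± 0.07 (adjusted p = 0.00096), and Acp5, the tartrate-resistant acid phosphatase, by 0.46 ± 0.12 (adjusted p = 0.0213), a size that was 0.23 without background correction and 0.14 in the authors' processed values. Lyz2, macrophage lysozyme, differed by -0.02 ± 0.07 (adjusted p = 0.900), and was called lowered with scaling to the detected probes (-0.31, adjusted p = 0.0181).

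Of 23 other lysosomal membrane proteins 4 were raised and 0 lowered, with a median of 0.12, and some of these changes were larger than any in the list of 33. Cd63, a tetraspanin of late endosomes, was at 14.03 ± 0.29 in MWCNT macrophages and 12.78 ± 0.14 in control macrophages (log2, SD, n = 6 each), a rise of 1.245 ± 0.124 (SE, adjusted p = 5.2e-05). Slc11a1, the divalent metal transporter of phagosomes known as Nramp1, was at 11.53 ± 0.36 in MWCNT macrophages and 10.09 ± 0.19 in control macrophages, a rise of 1.44 ± 0.15 (SE, adjusted p = 6.87e-05). The cation channels Tpcn1 and Mcoln2 rose by 0.99 ± 0.18 (adjusted p = 0.00241) and 0.35 ± 0.09 (adjusted p = 0.0239), and Mcoln2 was no longer called without control replicate 4 or 5 (adjusted p up to 0.0537). Litaf, the brightest gene of the list that did not pass, differed by 0.22 ± 0.07 (adjusted p = 0.0555). Litaf passed without background correction, with normexp and in the authors' processed values (adjusted p = 0.0224, 0.0379 and 0.0182), and differed by 0.02 with scaling to the detected probes. The Tpcn1 difference was 0.52 in the authors' processed values, and the Mcoln2 difference 0.21.

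Of 11 other V-ATPase genes, which include tissue-specific isoforms and regulators, 2 were raised and 0 lowered, with a median of 0.09. Wdr7 and Rogdi, subunits of the complexes that reassemble the pump, rose by 0.35 ± 0.09 (adjusted p = 0.0204) and 0.38 ± 0.10 (adjusted p = 0.0281). Rogdi lost its call without control replicate 1, 3 or 4 or MWCNT replicate 2 or 3 (adjusted p up to 0.0641). Atp6v0e, a small V0 subunit, differed by 0.08 ± 0.06 (adjusted p = 0.449).

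Delivery of hydrolases from the Golgi was represented by 21 genes, of which 3 were raised and 0 lowered, with a median of 0.02. With scaling to the detected probes 2 were raised and 2 lowered. Over all named genes, including those not detected on every array, it was 6.69% raised and 13.7% lowered. Both mannose 6-phosphate receptors, which sort newly made hydrolases, were among the 3 raised with quantile normalisation. Igf2r, the cation-independent receptor, rose by 1.67 ± 0.22 (adjusted p = 0.000253), a size that fell to 0.54 in the authors' processed values. M6pr, the cation-dependent receptor, rose by 0.28 ± 0.08 (adjusted p = 0.0355). The M6pr call was lost without any 1 of 7 arrays, control replicates 1, 2, 4 and 6 and MWCNT replicates 4, 5 and 6 (adjusted p up to 0.0739), and with scaling to the detected probes (0.11, adjusted p = 0.351). The coat adaptor Gga2 rose by 0.38 ± 0.06 (adjusted p = 0.00159), and the sorting receptor Sort1 differed by -0.11 ± 0.06 (adjusted p = 0.308) and was called lowered with scaling to the detected probes (-0.38, adjusted p = 0.00263).

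Of 14 genes of the transcriptional and mTORC1 control of lysosomes 2 were raised and 0 lowered, with a median of 0.03. Rragd, a Rag GTPase that recruits mTORC1 to lysosomes, stands outside this count, since it was detected on 5 MWCNT arrays and 0 control arrays and so entered the fit through the MWCNT group. After background correction and against the detection limit it was at least 1.32-fold higher in MWCNT macrophages, a bound that was not tested. The size depended on the processing, with log2 differences of 0.33 without background correction and 0.17 in the authors' processed values, so that this bound holds only for the background-corrected scale. Rragb, another Rag GTPase that was not detected on every array, fell by 0.77 ± 0.17 in log2 units (adjusted p = 0.00811) and by 0.14 in the authors' processed values. Tfec, a macrophage relative of TFEB, rose by 0.34 ± 0.10 (adjusted p = 0.0398), and Rragc by 0.22 ± 0.07 (adjusted p = 0.0415). Leaving out single arrays ended the Tfec call for 8 arrays (control replicates 2 to 6 and MWCNT replicates 3, 5 and 6) and the Rragc call for 10 (all but control replicate 3 and MWCNT replicate 4), with adjusted p up to 0.0800 and 0.0847. Rragc was also lost under both median scalings (adjusted p = 0.110 and 0.700). Lamtor4, a subunit of the Ragulator scaffold, differed by -0.08 ± 0.07 (adjusted p = 0.493), or by -0.26 with scaling to the detected probes (adjusted p = 0.0490). That scaling lowered 13.7% of all named genes. Tfeb, Tfe3 and Mitf, named after their values were seen, differed by -0.36 ± 0.16 (adjusted p = 0.173), 0.21 ± 0.07 (adjusted p = 0.0688) and -0.03 ± 0.14 (adjusted p = 0.924).

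Cell type markers and array measures moved with the groups as well. Counts are again over markers detected on all 12 arrays, where 5.45% of all named genes were raised and 5.25% lowered. Sums are over all measured markers of a list. In several lists they include markers that entered through the MWCNT group, which had to be higher there. Of 8 such markers of monocyte-derived macrophages 6 were raised; Ly6c1, Ccr2 and F13a1 were detected on 0 control arrays. The 13 measured markers had summed normalised intensities of 35498 to 45665 on MWCNT arrays and 23334 to 29707 on control arrays. Of 10 resident alveolar macrophage markers 2 were raised and 2 lowered, with sums of 112779 to 123775 on MWCNT arrays and 123838 to 129531 on control arrays; Siglecf, Fabp4 and Fabp1 did not pass the detection filter. Markers of T and NK cells were raised for 4 of 5, with Nkg7 detected on 0 control arrays. The 9 measured had sums of 7882 to 11756 on MWCNT arrays and 7132 to 8683 on control arrays, and Cd4, Cd8a, Cd5 and Gzmb did not pass the filter. Raised counts were 0 of 1 for B and plasma cells, 1 of 2 for neutrophils, 2 of 3 for dendritic cells, 2 of 4 for epithelium and 0 of 5 for macrophages in general. In the first 4 of these lists 3 of 6, 4 of 9, 3 of 8 and 2 of 8 markers on the array did not pass the filter, and Cd79b, Blk, S100a9, Zbtb46 and Sftpa1 were detected on 0 control arrays. Summed intensities of B and plasma cell markers were 966.9 to 1819 on MWCNT arrays and 749.5 to 942 on control arrays. Neutrophil markers had 3835 to 7603 on MWCNT arrays and 2082 to 3613 on control arrays. Epithelial markers had 7250.3 to 27894 on MWCNT arrays and 2179.5 to 12746 on control arrays. Dendritic cell markers had 1128 to 2198 on MWCNT arrays and 820.5 to 1032.5 on control arrays. General macrophage markers had 42994 to 48783 on MWCNT arrays and 42849 to 49891 on control arrays. Background signal was 157 ± 10.05 on MWCNT arrays and 138 ± 6.53 on control arrays (SD, n = 6 each, exact two-sided permutation p = 0.00866), and the share of probes detected was 39.8% ± 0.592 on MWCNT arrays and 38.5% ± 0.469 on control arrays (exact permutation p = 0.00433, adjusted p = 0.0108 for both over 3 measures). The part of these cell types and array measures in the lysosomal differences was not tested.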

How the data were processed

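RNA of alveolar macrophages from 6 MWCNT and 6 control mice was measured on 12 bead arrays of 45281 probes. Per the file headers, the deposited scanner table holds 1 intensity per probe on each array, with its detection p-value, and the deposited intensity values were not normalised between arrays. A second deposited table holds intensity values that the authors processed with lumi, as the submitters' processing notes say, version not given in the sources used here. Their scale was linear, each column ranked probes as the scanner values of its own array, and sorted columns were nearly identical. Their lowest value was 200.3 and the median of the column medians 227.8; the origin of this offset is unknown.

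Platform annotation gave 34885 probes 1 symbol, 18 several and 10378 none. The scanner signals went through neqc of limma 3.58.1 (R 4.3.3, statmod 1.5.0; background from detection p-values, offset 16, quantile normalisation, log2). Probes with a detection p under 0.05 on at least 3 of 12 arrays were retained (19291), and each gene was represented by its brightest such probe, which gave 10143 named genes and 13210 features. The groups were compared with lmFit and eBayes, with no covariate and two-sided, with Benjamini-Hochberg adjustment over all features. Where no array of a group detected a gene, its fold is a bound. Exact permutation tests of array measures used SciPy 1.17.1 under Python 3.11.15, matplotlib 3.10.9 drew the figures, and the fit was tested on simulated data. The labels give separate animals. The number of arrays limits the precision.

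The members and lists were chosen with earlier results of these data known. All matched members are named. Full values are given for called members and for the members with the largest and the smallest difference in each class. From each further list the called genes with the smallest adjusted p, up to 4, and the brightest uncalled gene are named. Counts over the further lists and markers use genes detected on all 12 arrays, a choice made after seeing the data. Tpp1, Gaa, Glb1 and Atp6v1h are given array values or ranges beyond this rule, after their values were seen. Alternatives covered background correction, scaling, the authors' values, the probe filter, the probe rule, the variance model, array weights, the replicate number as a block, and leaving out arrays. Scaling to the detected probes without quantile normalisation and the fit of every probe were added after seeing the data, since centring on the same probes after quantile normalisation moved almost nothing.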

Additional observations from a re-analysis of the deposited data

Results flagged for a closer look

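Within groups of 6, a single array stood far from the other 5 in 9 of 66 gene and group combinations (Dixon's test, 95% critical value), where chance alone marks about 1 in 20. On MWCNT arrays, replicate 4 was low for Asah1 (13.85) and high for Idua (10.65), replicate 6 was high for Lamp2 (13.82), and replicate 2 was high for Scarb2 (11.48) and low for Atp6v0b (12.04). On control arrays, replicate 1 was low for Laptm5 (14.71) and Atp6v1c1 (11.55) and high for Atp6v1e1 (14.20), and replicate 4 was low for Man2b1 (13.90). Values are normalised log2 levels. The Atp6v1c1 value on control replicate 1 lay below the nearest control array, at 11.86, and leaving it out gave a smaller difference (0.45) that was still called.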

How the results depend on the processing

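Under 25 alternatives (12 that each left out 1 array and 13 others), Atp6v1c1, Npc2, Atp6v1a and Acp2 remained raised, and 25 of the 33 genes changed neither call nor called direction. The Acp2 difference ran from 0.18 to 0.43 across them, with an adjusted p up to 0.0464. Of 825 gene and setting combinations 813 gave the same call, 10 gained one, 0 lost one and 2 reversed, and the causes were not tested. Scaling to the detected probes without quantile normalisation reversed Psap to -0.23 and Laptm5 to -0.26 and lowered Asah1, Man2b1 and Cd164 (-0.26, -0.32 and -0.28), so that members lowered came to 5 and the median to -0.10. Of all named genes it lowered 13.7%, and their median was -0.10 as well. Median scaling over all probes raised 2 hydrolases, Tpp1 (0.40) with Acp2, and gave a median of 0.10. The authors' values lowered 1 member, Man2b1 (-0.11), and raised Atp6v1e1 (0.17). Atp6v1e1 also passed with a trended, robust variance (adjusted p = 0.0386) and Atp6v1h with array weights (adjusted p = 0.0446). With the replicate number as a block, 5 members and 2 hydrolases were raised, Tpp1 being added (adjusted p = 0.0231). Same-numbered arrays correlated at -0.18 to 0.15 in their deviations, 3 of 6 numbers being best with their own. The labels do not say that the numbers pair the mice, and the main fit used no block. Background signal was higher on replicates 1 and 2 than on replicates 5 and 6 in both groups. It was 165.6, 169.9, 143.1 and 148.5 on these MWCNT arrays, and 148.8, 142.8, 131.8 and 135.1 on these control arrays. Whether the numbers mark a shared order of the arrays was not tested. Leaving out each array gave 4 to 5 members raised and 0 lowered, 1 hydrolase, 0 membrane proteins and 2 to 3 V-ATPase subunits raised, and a median of 0.04 to 0.08. Among the further genes, size varied across 6 ways of processing the signals: Igf2r ranged from 0.54 to 1.88, Tpcn1 from 0.52 to 1.19, Rragd from 0.17 to 1.12, Acp5 from 0.14 to 0.71, Tfec from 0.14 (adjusted p = 0.0539 in the authors' values) to 0.57, and Rragb from -0.79 to -0.14.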
